A study of Homo sapiens with 8 samples.

Results

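The genes described are the 10 core genes of the circadian clock, NPAS2, CLOCK, BMAL1 (older symbol ARNTL), PER1, PER2, PER3, CRY1, CRY2, NR1D1 and NR1D2, out of 60675 Ensembl gene identifiers counted in each library. They were listed by identity, but the group was selected on a measured value of a single member. NPAS2 responded to indisulam differently in parental and resistant cells, and its values are therefore given below as a description with no test. Indisulam is a molecular glue under which the ubiquitin ligase receptor DCAF15 takes up RBM39, a splicing factor, for degradation. RNA was sequenced in 4 groups of 2 libraries from Panc10.05, a long-established line of human pancreatic adenocarcinoma cells. Parental untreated cells were the controls, and parental cells on indisulam had received 2 µM for 18 h. Resistant cells on indisulam came from a line adapted to rising doses and were cultured with 2 µM throughout, and resistant untreated cells were the same line after a week without the drug. The resistant line is a single derived line and the libraries of a group are called technical replicates in the study, so p-values measure the spread between libraries. The protocol notes of the labels name A549 cells where the titles name Panc10.05, and the titles were followed. No group was followed over time, and the hour of harvest of the libraries is not given in the sources used here. A change in the level of a clock gene and a change in the phase of its rhythm therefore cannot be told apart.

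In the mammalian clock, CLOCK or its paralogue NPAS2 pairs with BMAL1 to form an activator that binds E-box elements. Among its targets are the PER and CRY genes, whose proteins assemble and inhibit the activator, and the nuclear receptor genes NR1D1 and NR1D2, whose proteins repress BMAL1 and NPAS2 through ROR elements. These loops run in most tissues, and NPAS2 has been reported to stand in for CLOCK in some cells that lack it. Whether it does so in Panc10.05 cells was not tested.

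Each library held between 65266253 and 108002436 reads assigned to genes. All 10 clock genes were among the 16661 genes that passed the filter on low counts. Libraries were scaled with TMM (trimmed mean of M values), and levels are given on that scale as CPM, read counts relative to library size. The 6 epithelial markers examined (KRT7, KRT8, KRT18, KRT19, EPCAM and CDH1) were at 168 CPM or more in every library, whereas PTPRC and DCN had 0 reads in all libraries, PECAM1 had at most 8, and COL1A1 was at 1.34 to 3.96 CPM. RBM39 mRNA rose with the drug in both lines, by log2 values of 1.11 (SE 0.03, adjusted p 4.9e-18) in parental and 0.94 (SE 0.03, adjusted p 7.3e-18) in resistant cells. Here and below p-values come from the quasi-likelihood test of edgeR and are adjusted by Benjamini-Hochberg over all 16661 genes, and a gene was called at an adjusted p under 0.05.

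The promoters of the clock genes were searched for the elements through which the loop is known to act, so that the values can be read beside the sequences. RefSeq promoters (GRCh38.p14, from 250 bases before to 50 bases after each annotated start) were found for all 10 genes, 15 promoters in all. Both strands were searched, and a site that reads the same on both was counted 1 time. The E-box CACGTG was in 7.26% of all 35116 promoters in the table, the D-box TTANGTAA in 2.18%, the ROR element TAGGTCA in 1.85% and the cyclic AMP response element TGACGTCA in 1.85%. Among the clock genes, PER1 held an E-box with its first base at position -173 from the start, and the second promoter of NR1D2 held 2 E-boxes, at -155 and -105, and a D-box. D-boxes were also found in PER2 and PER3, and ROR elements in the second promoters of BMAL1 and CRY2. NPAS2, CLOCK, CRY1 and NR1D1 held none of the 4 elements in these windows. Of the 18 further clock genes taken up below, 16 had promoters in the table, 21 promoters in all. An E-box was in 6 of these promoters, from 5 genes: CIART, BHLHE40, BHLHE41, TEF and TIMELESS. CIART, which encodes a further repressor of the loop, held 3 E-boxes, at -129, -71 and -57, and is the only further gene printed here. The sites are printed 5′ to 3′ on the strand of the gene, with the element in capitals. The printed stretches of PER2, BMAL1 and CRY2 overlap annotated exons. The D-box of NR1D2 matches the element on the other strand.
PER1 E-box, chr17:8152561-8152588, minus strand: gcacccaggtcCACGTGcgcccgtgtgt
NR1D2 E-box, chr3:23945955-23945982, plus strand: gcgggcggggaCACGTGaggccgctcgg
NR1D2 E-box, chr3:23946005-23946032, plus strand: ggccgcagggaCACGTGggggcgggggc
NR1D2 D-box, chr3:23945916-23945945, plus strand: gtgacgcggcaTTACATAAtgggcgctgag
PER2 D-box, chr2:238288595-238288624, minus strand: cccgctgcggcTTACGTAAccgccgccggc
PER3 D-box, chr1:7784103-7784132, plus strand: gagcccgcgcgTTATGTAAcgcgccccggg
BMAL1 ROR element, chr11:13277809-13277837, plus strand: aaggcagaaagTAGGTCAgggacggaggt
CRY2 ROR element, chr11:45847399-45847427, plus strand: ttgcggcgtcaTAGGTCActgggcgggct
CIART with 3 E-boxes, chr1:150282414-150282513, plus strand: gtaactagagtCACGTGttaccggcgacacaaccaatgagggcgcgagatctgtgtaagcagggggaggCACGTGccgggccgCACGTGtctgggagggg

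On GRCh38 NPAS2 is ENSG00000170485, chromosome 2, 100820139 to 100996829, plus strand. Of the other activators, CLOCK is ENSG00000134852, chromosome 4, 55427903 to 55546909, minus strand, and BMAL1 is ENSG00000133794, chromosome 11, 13276652 to 13387266, plus strand. Among the repressors, PER1 is ENSG00000179094, chromosome 17, 8140472 to 8156506, minus strand, PER2 is ENSG00000132326, chromosome 2, 238244044 to 238290102, minus strand, and PER3 is ENSG00000049246, chromosome 1, 7784291 to 7845177, plus strand. CRY1 is ENSG00000008405, chromosome 12, 106991364 to 107093549, minus strand, and CRY2 is ENSG00000121671, chromosome 11, 45847118 to 45883248, plus strand. Of the nuclear receptors, NR1D1 is ENSG00000126368, chromosome 17, 40092793 to 40100589, minus strand, and NR1D2 is ENSG00000174738, chromosome 3, 23945286 to 23980617, plus strand.

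NPAS2 was at under 1 CPM in parental cells and at 19.8 CPM or more in resistant cells. The parental untreated libraries held 43 and 30 NPAS2 reads and the parental indisulam libraries 45 and 54. In resistant cells there were 1718 and 1521 reads off the drug and 1338 and 1972 on it. Scaled to depth, NPAS2 was at 0.393 and 0.281 CPM in untreated and 0.600 and 0.697 CPM in treated libraries of the parental line, and at 23.2 and 23.4 CPM off and 19.8 and 20.5 CPM on the drug in those of the resistant line. The lines did not overlap, and neither did untreated and treated libraries within a line. Mean levels were 0.337 ± 0.0793 and 0.649 ± 0.0686 CPM in parental cells off and on the drug, against 23.3 ± 0.162 and 20.2 ± 0.466 CPM in resistant cells (SD, n = 2). The resistant line was thus 69.2-fold higher off the drug and 31.1-fold higher on it, or 6.10 and 4.96 on the log2 scale of the fit.

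The response of NPAS2 to the drug, the value by which it was chosen, was small beside this step between the lines. The log2 fold change with indisulam was 0.94 in the parental and -0.21 in the resistant line, which differ by -1.15. In parental cells the change rested on few reads. Exact Poisson 95% intervals, which cover counting error only, ran from 0.284 to 0.529 and from 0.189 to 0.401 CPM in the untreated libraries. In the treated ones they ran from 0.438 to 0.803 and from 0.524 to 0.910 CPM. The interval of untreated replicate 1 overlapped those of both treated libraries, and that of untreated replicate 2 overlapped neither. Leaving out single libraries moved the parental change between 0.72 and 1.21 and the resistant change between -0.23 and -0.19. The 2 annotated genes that overlap NPAS2 exons on the other strand had 10 reads and 0 reads over all 8 libraries.

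**Figure D1:**
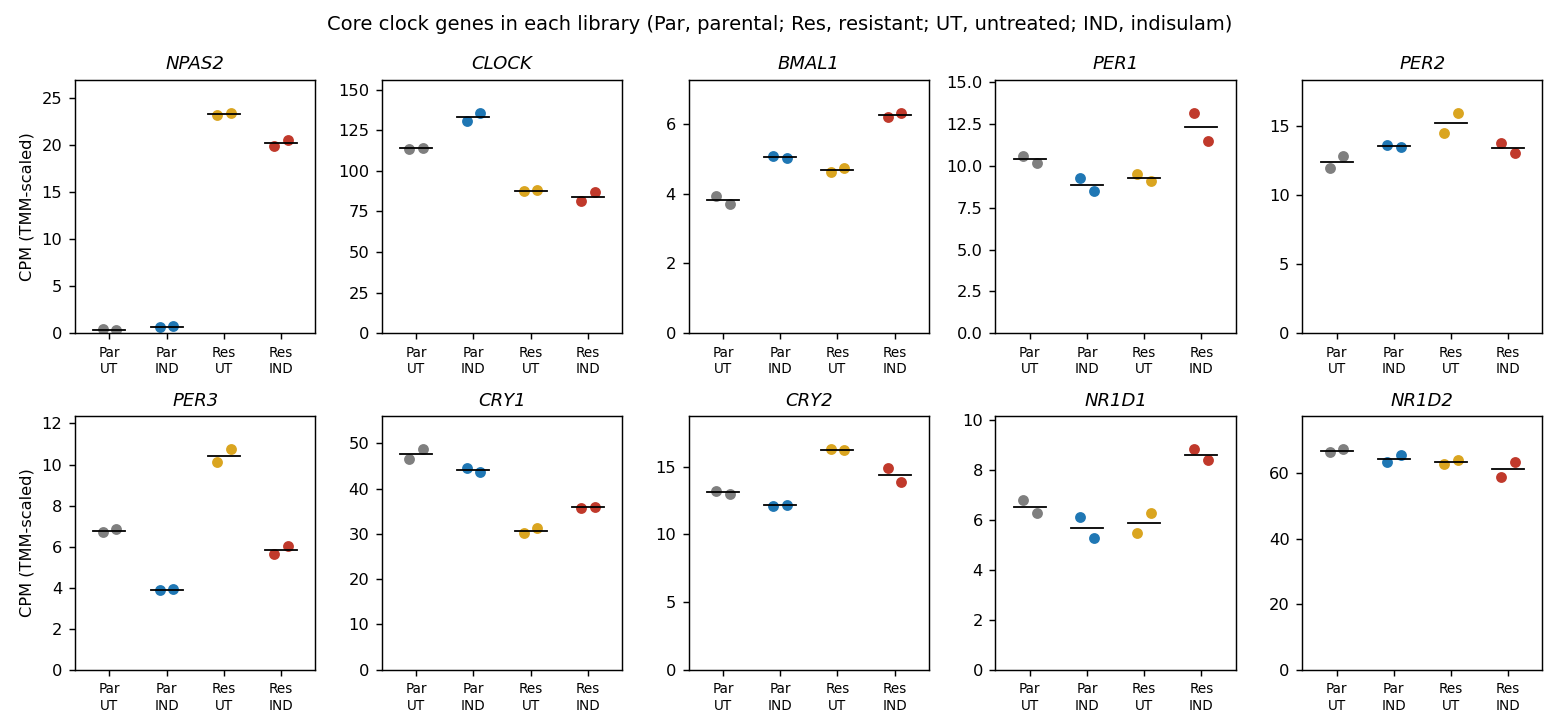
Level of each core clock gene in CPM (linear axis from 0) in the 8 libraries, with the points of a group beside each other and a line at the group mean. NPAS2 lies below 1 CPM in the 4 parental libraries and between 19.8 and 23.4 CPM in the 4 resistant ones, whereas the 4 groups of NR1D2 lie close together.

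To set the genes beside each other, levels were divided by the length of all annotated exons of a gene (FPKM, CPM per kilobase). In parental untreated cells the order from high to low was NR1D2, CRY1, CLOCK, NR1D1, CRY2, PER2, PER1, PER3, BMAL1 and NPAS2. The libraries of neighbours in this order overlapped only for CRY1 and CLOCK. NPAS2 was at 0.0269 ± 0.00634 FPKM there, the lowest of the 10, and CLOCK at 9.89 ± 0.0342 FPKM (SD, n = 2). Resistant untreated cells had NPAS2 at 1.86 ± 0.0129 and CLOCK at 7.63 ± 0.0487 FPKM, which placed NPAS2 in rank 7, above PER1, PER3 and BMAL1. Per length, NPAS2 therefore stood at 0.272% of the CLOCK level in parental untreated and 24.4% in resistant untreated cells, and at 0.449% and 22.2% on the drug. Taken over the longest annotated transcript of each gene, the resistant shares were 34.8% and 31.5%. In resistant untreated cells the libraries of NR1D1 and PER2 overlapped, as did those of PER1 and PER3. In resistant cells on the drug NPAS2 was at 1.61 ± 0.0373 FPKM in rank 8 and overlapped PER1, its upper neighbour, and the pairs CRY1 and CLOCK, and PER2 and PER1, also overlapped. In parental cells on the drug CLOCK was first, NPAS2 last, and no neighbours overlapped.

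BMAL1, the shared partner of CLOCK and NPAS2, was the lowest of the other 9 genes in both untreated groups, at 0.551 ± 0.0237 FPKM in parental and 0.677 ± 0.0130 FPKM in resistant cells (SD, n = 2). Its paralogue BMAL2, known to pair with CLOCK as well, was at 39.6 ± 0.348 FPKM in parental untreated and 44.9 ± 0.286 FPKM in resistant untreated cells (SD, n = 2). BMAL2 was above each of the 10 core genes in every library.

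**Figure D2:**
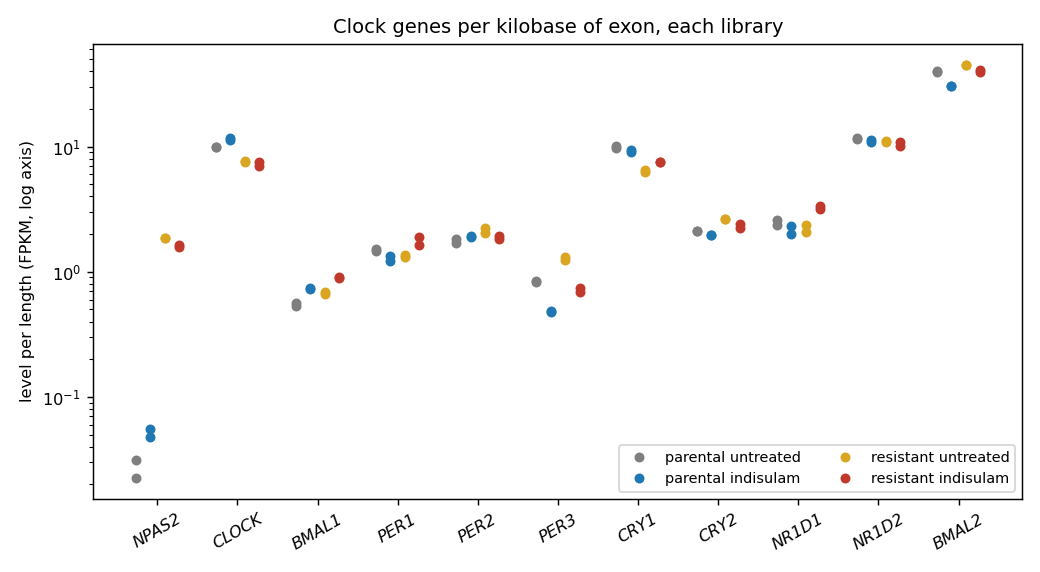
Level per kilobase of exon (FPKM, log axis) of the 10 core clock genes and BMAL2, with 1 point per library and groups by color. NPAS2 moves from the bottom of the plot in parental cells to the range of the PER genes in resistant cells, and BMAL2 lies above all core genes.

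To determine how the clock genes respond to the drug in sensitive cells, parental indisulam libraries were compared with parental untreated libraries. Of the 9 genes other than NPAS2, 7 were called, 3 higher and 4 lower. Among all genes tested 58.2% were called, 31.6% higher and 26.6% lower. The median log2 fold change was -0.11 over the 9 genes and 0.01 over all genes. Of all calls 54.3% were higher, and 42.0% with libraries scaled by their totals alone.

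PER3, a period gene whose protein is an accessory repressor, had the largest change of the 9. It was at 6.71 and 6.85 CPM in untreated and 3.89 and 3.91 CPM in treated parental libraries, and fell with a log2 change of -0.80 (SE 0.07, adjusted p 3.1e-09). BMAL1 increased from 3.94 and 3.71 to 5.10 and 5.02 CPM, a log2 change of 0.40 (SE 0.08, adjusted p 0.00010). CLOCK, which carries the activator's acetyltransferase activity, went from 114 and 114 to 131 and 136 CPM and rose by 0.23 (SE 0.03, adjusted p 1.8e-06) on the log2 scale. The groups did not overlap for any of the 9 genes, including CRY2 and NR1D2, which were not called. The share of all genes without such overlap was not determined in any comparison.

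The other period and cryptochrome genes and the nuclear receptors had log2 fold changes between -0.23 and 0.13 in parental cells. PER1 was at 10.6 and 10.2 CPM untreated and 9.30 and 8.48 CPM treated, with a log2 change of -0.23 (SE 0.07, adjusted p 0.0053). CRY1 went from 46.6 and 48.7 to 44.7 and 43.6 CPM, a log2 change of -0.11 (SE 0.03, adjusted p 0.0096), and NR1D1, which encodes REV-ERB alpha, from 6.79 and 6.27 to 6.12 and 5.26 CPM, -0.20 (SE 0.08, adjusted p 0.037). These are the 3 smallest falls among the calls. PER2 was called higher, from 11.9 and 12.8 to 13.6 and 13.5 CPM, with 0.13 (SE 0.05, adjusted p 0.044), but not with the replicate number as a block (adjusted p 0.052). This call was also lost with library totals alone (adjusted p 0.34) and with no filter on low counts (0.16). The same held for a minimum mean CPM of 1 (0.24) and for only the groups compared (0.066). CRY2 (13.2 and 13.0 against 12.1 and 12.2 CPM) and NR1D2 (66.5 and 67.3 against 63.4 and 65.4 CPM) were not called, with log2 fold changes of -0.11 (SE 0.05, adjusted p 0.065) and -0.05 (SE 0.03, adjusted p 0.20). Both were called lower with library totals alone (adjusted p 0.0049 and 0.0064) and with a minimum mean CPM of 1 (0.0066 and 0.011). Without parental untreated replicate 1 the calls of PER1 (log2 change -0.20), PER2 (0.08) and NR1D1 (-0.14) were lost. The DESeq2 Wald test called 4 of the 9 genes, beside 7984 of all 16661 genes tested. It lost PER2 (adjusted p 0.13), CRY1 (0.059) and NR1D1 (0.14). Calls were also lost for CRY1 without parental untreated replicate 2 (adjusted p 0.17), for NR1D1 without parental indisulam replicate 2 (0.31), and for PER2 without either parental indisulam library (0.18 and 0.14) or with any 1 resistant library left out (0.060 to 0.10), while CRY2 was called lower with any 1 resistant library left out (0.026 to 0.027) and NR1D2 without either resistant indisulam library (0.044 and 0.045).

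Resistant cells on the drug were then compared with resistant cells after the week without it. Again 7 of the 9 genes were called, here 4 higher and 3 lower, beside 50.7% of all genes tested (24.9% higher and 25.8% lower). The median log2 fold change was -0.05 over the 9 genes and 0.0093 over all genes, and 49.1% of all calls were higher (59.7% with library totals alone).

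Among the 9 genes other than NPAS2, the 2 with the largest change in parental cells changed in the same direction in resistant cells. PER3 fell from 10.14 and 10.7 to 5.64 and 6.01 CPM, a log2 change of -0.83 (SE 0.07, adjusted p 3.4e-10), and BMAL1 rose from 4.63 and 4.76 to 6.20 and 6.33 CPM, 0.42 (SE 0.08, adjusted p 8.5e-05). NR1D1 rose in this line, from 5.47 and 6.25 to 8.81 and 8.39 CPM, with 0.55 (SE 0.08, adjusted p 5.2e-06). So did PER1, from 9.50 and 9.10 to 13.2 and 11.5 CPM (0.40, SE 0.07, adjusted p 4e-05), and CRY1, from 30.2 and 31.2 to 35.7 and 36.0 CPM (0.23, SE 0.04, adjusted p 2.9e-05). For each of these 3 genes both libraries on the drug were above both libraries off it. The groups did not overlap for CLOCK either, which was not called, and the share of all genes without overlap was not determined.

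PER2 fell from 14.5 and 16.0 to 13.7 and 13.0 CPM, -0.19 (SE 0.06, adjusted p 0.0077), and CRY2 from 16.3 and 16.2 to 14.9 and 13.9 CPM, -0.18 (SE 0.05, adjusted p 0.0044). CLOCK (87.5 and 88.3 against 81.3 and 86.7 CPM) and NR1D2 (62.7 and 64.0 against 58.8 and 63.5 CPM) were not called, with -0.06 (SE 0.03, adjusted p 0.11) and -0.05 (SE 0.04, adjusted p 0.29). Without resistant indisulam replicate 2, PER2 (adjusted p 0.11) and CRY2 (0.11) were no longer called and CLOCK (0.018) and NR1D2 (0.033) were called lower. Without resistant untreated replicate 2, PER2 was not called (adjusted p 0.10).

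Whether the responses themselves differed was tested as the resistant minus the parental log2 fold change. For 5 of the 9 genes the difference was called, 3 positive and 2 negative, beside 50.1% of all genes tested (22.7% positive and 27.5% negative). The median difference was 0.0057 over the 9 genes and 0.010 over all genes. Both response comparisons are differences from their own untreated group, and no library is shared between them. The parental response was to 18 h of the drug. The resistant response set continuous culture on the drug against a week without it. Line and length of exposure therefore cannot be told apart in these differences.

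NR1D1 and PER1 fell in parental and rose in resistant cells, with differences of 0.75 (SE 0.11, adjusted p 1e-05) and 0.62 (SE 0.09, adjusted p 1.1e-05). CRY1 had the same signs and a smaller difference, 0.34 (SE 0.05, adjusted p 1.1e-05). PER2 and CLOCK had the opposite sign of difference, -0.32 (SE 0.08, adjusted p 0.0017) and -0.29 (SE 0.05, adjusted p 1.5e-05), as did NPAS2, for which no test is given. The responses of BMAL1, PER3, CRY2 and NR1D2 were not shown to differ, with differences of 0.01 (SE 0.11, adjusted p 0.93), -0.04 (SE 0.10, adjusted p 0.79), -0.07 (SE 0.07, adjusted p 0.44) and 0.01 (SE 0.05, adjusted p 0.94). Each of the 5 calls kept its direction and its call under every alternative run. Positive differences made up 45.2% of all calls with TMM and 65.8% with library totals, under which the median difference of all genes was 0.13 in place of 0.010.

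NR1D1 shares 473 exonic bases with THRA, which lies on the opposite strand and took 52.5% of the reads of both genes. The strand setting of the counting is not given in the sources used here, so the NR1D1 values are uncertain to that extent. THRA was not called for the drug in parental (-0.17, SE 0.08, adjusted p 0.081) or resistant cells (-0.02, SE 0.07, adjusted p 0.83). It was higher in resistant than in parental cells, by 0.89 off and 1.03 on the drug. The uncertainty therefore also holds for NR1D1 in the comparisons of the lines below. CLOCK shares 76 exonic bases with TMEM165 in antisense, and TMEM165 took 40.8% of the reads of both.

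**Figure D3:**
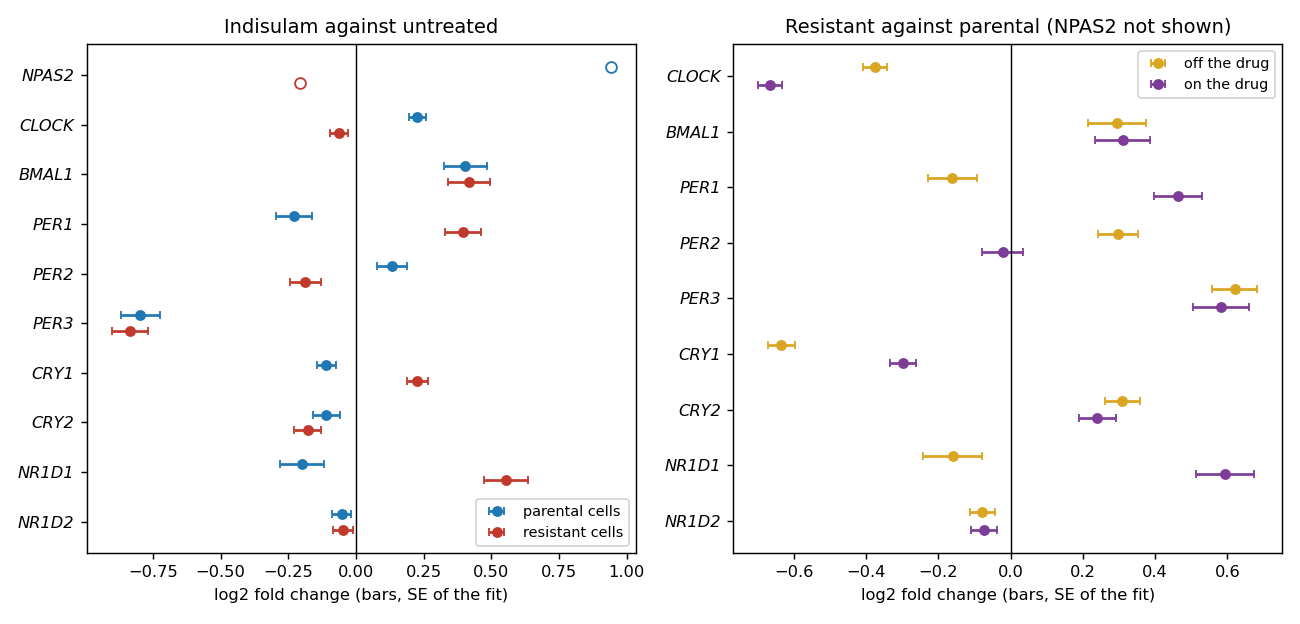
Left, log2 fold change with indisulam in parental and resistant cells for the 10 core clock genes. Right, the same for resistant against parental cells, without and with indisulam, for the 9 genes other than NPAS2. Bars are the SE of the fit, and the open NPAS2 points carry none because NPAS2 was chosen for this response. PER3 lies below and BMAL1 above 0 in both lines, and PER1, CRY1 and NR1D1 lie on opposite sides of 0.

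The lines were next compared off the drug. Of the 9 genes other than NPAS2, 7 were called, 4 higher and 3 lower in resistant cells, beside 60.1% of all genes (30.3% higher and 29.9% lower). The median was -0.08 for the 9 genes and -0.02 for all genes. This comparison uses the same untreated libraries as the responses above. From the levels given there, PER3, CRY2, PER2 and BMAL1 were higher in the resistant line, at log2 values of 0.62 (SE 0.06, adjusted p 7.7e-09), 0.31 (SE 0.05, adjusted p 7.1e-06), 0.30 (SE 0.05, adjusted p 5.7e-05) and 0.30 (SE 0.08, adjusted p 0.0028). CRY1 was lower by the widest margin, -0.63 (SE 0.04, adjusted p 2.6e-13), followed by CLOCK with -0.37 (SE 0.03, adjusted p 4.9e-10) and PER1 with -0.16 (SE 0.07, adjusted p 0.042). The groups did not overlap for any of these 7 genes, nor for NR1D1 and NR1D2, so non-overlap does not set the called genes apart here. The share of all genes without overlap was not determined. NR1D1 and NR1D2 were not called, at -0.16 (SE 0.08, adjusted p 0.094) and -0.08 (SE 0.04, adjusted p 0.060), although NR1D2 was with the replicate block (adjusted p 0.048). The call of PER1 was lost without either parental untreated replicate (adjusted p 0.20 and 0.060) or either resistant untreated replicate (0.058 and 0.21), and NR1D1 was called lower without resistant untreated replicate 2 (0.029) and NR1D2 without either resistant indisulam library (0.014 and 0.015).

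On the drug, 7 of the 9 genes were called, 5 higher and 2 lower in resistant cells, beside 69.5% of all genes (34.6% higher and 34.9% lower). The median was 0.24 for the 9 genes and 0.0032 for all genes. CLOCK was lower with -0.67 (SE 0.03, adjusted p 9.2e-15), which is the opposite direction to its paralogue NPAS2, and CRY1 with -0.30 (SE 0.04, adjusted p 1.3e-07). NR1D1, PER3, PER1, BMAL1 and CRY2 were higher, with 0.59 (SE 0.08, adjusted p 7.2e-07), 0.58 (SE 0.08, adjusted p 4.2e-07), 0.46 (SE 0.07, adjusted p 2.3e-06), 0.31 (SE 0.08, adjusted p 0.00086) and 0.24 (SE 0.05, adjusted p 0.00023). PER2 and NR1D2 were not called, with -0.02 (SE 0.06, adjusted p 0.74) and -0.07 (SE 0.04, adjusted p 0.075). Without resistant indisulam replicate 2, NR1D2 was called lower (adjusted p 0.0087).

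The loop has further parts, and 18 of these genes were listed: bZIP factors of the D-box (DBP, TEF, HLF, NFIL3), further repressors (BHLHE40, BHLHE41, CIART), ROR activators (RORA, RORB), BMAL2, kinases and ubiquitin ligase receptors that act on PER and CRY proteins (CSNK1D, CSNK1E, GSK3B, BTRC, FBXW11), and TIMELESS, NOCT and USP2. Of these, 17 passed the filter, since RORB had at most 1 read in any library. In parental cells 10 of 17 were called with the drug, 5 higher and 5 lower, and in resistant cells 13, 8 higher and 5 lower. Resistant against parental cells gave 10 calls off the drug, 6 higher and 4 lower, and 11 on it, 6 higher and 5 lower. The response differed between the lines for 11 genes, 7 positive and 4 negative. The shares of all genes given above apply here too.

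CIART, whose E-boxes are printed above, was at 5.85 and 6.09 CPM in parental cells off the drug and 4.20 and 4.47 CPM on it, and at 2.94 and 2.82 CPM and 3.69 and 4.07 CPM in resistant cells off and on it. It fell with the drug in parental cells (-0.46, SE 0.08, adjusted p 2.6e-05) and rose in resistant cells (0.44, SE 0.09, adjusted p 0.00048), a difference of 0.90 (SE 0.12, adjusted p 2.5e-06). Off the drug it was lower in resistant cells, -1.05 (SE 0.09, adjusted p 2e-10), and on the drug the lines were not called different, -0.15 (SE 0.09, adjusted p 0.12). CIART thus had the signs of NR1D1, PER1 and CRY1 in both responses. The DESeq2 Wald test did not call the parental falls of NR1D1 and CRY1. Of these 3 core genes, PER1 held an E-box in the windows searched, and NR1D1 and CRY1 held none. NR1D2, the other core gene with E-boxes, was not called in parental (-0.05) or resistant cells (-0.05). The other further genes with an E-box did not have the signs of CIART. A link between E-boxes and the responses was not tested. In parental and resistant cells BHLHE40 rose (0.16 and 0.42), and BHLHE41 (-0.12 and -0.24) and TIMELESS (-0.20 and -0.26) fell. TEF was not called in parental cells (-0.04) and fell in resistant cells (-0.33).

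BHLHE40, which encodes the repressor DEC1, was at 21.0 and 20.8 CPM in untreated and 23.7 and 23.0 CPM in treated parental libraries. In resistant libraries it was at 33.7 and 35.6 CPM off and 46.4 and 46.2 CPM on the drug. It was higher in resistant cells off (0.73, SE 0.04, adjusted p 6.5e-14) and on the drug (0.99, SE 0.04, adjusted p 1.4e-16). USP2, a deubiquitinase gene, was at 0.375 and 0.309 CPM in untreated and 0.307 and 0.232 CPM in treated parental libraries, against 1.23 and 1.36 and 2.17 and 1.98 CPM in resistant ones. It was higher in resistant cells by 1.91 (SE 0.19, adjusted p 4.6e-09) off and 2.93 (SE 0.19, adjusted p 2.4e-12) on the drug. It rose with the drug in resistant cells, 0.68 (SE 0.14, adjusted p 0.00035). USP2 shares 1142 exonic bases with its antisense gene USP2-AS1, to which 83.2% of the reads of both were assigned, so its values are uncertain.

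BMAL2 fell with the drug in both lines, from 275 and 279 to 211 and 213 CPM in parental cells (-0.39, SE 0.03, adjusted p 6.5e-11) and from 316 and 313 to 274 and 284 CPM in resistant cells (-0.17, SE 0.03, adjusted p 1.5e-05), where BMAL1 rose in both. HLF went from 1.63 and 1.82 to 1.19 and 0.977 CPM in resistant cells, -0.69 (SE 0.15, adjusted p 0.00048), and was lower than in parental cells on the drug, -0.92 (SE 0.14, adjusted p 4.9e-06). FBXW11, a receptor for phosphorylated PER proteins, rose in parental cells from 98.6 and 97.8 to 120 and 118 CPM, 0.28 (SE 0.03, adjusted p 1.7e-08).

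**Figure D4:**
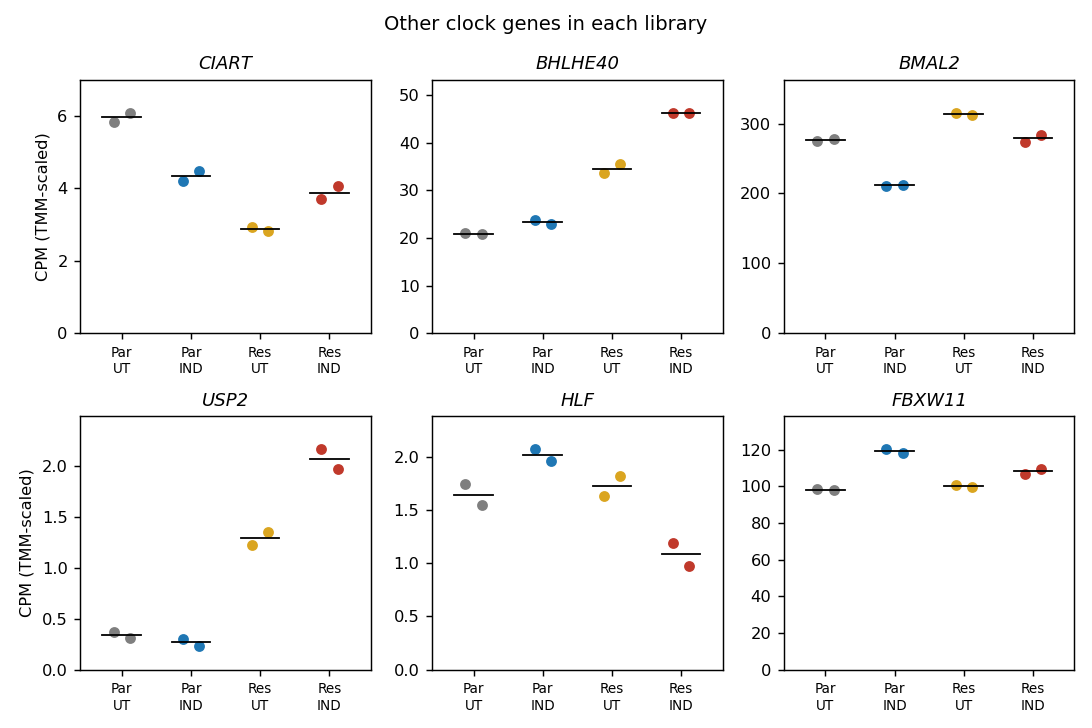
Level in CPM (linear axis from 0) of 6 further clock genes in the 8 libraries, with a line at the mean of each group (Par, parental; Res, resistant; UT, untreated; IND, indisulam). CIART falls with the drug in parental and rises in resistant cells, and USP2 and BHLHE40 are higher in resistant cells in every library.

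Finally, the genes with the pattern most like that of NPAS2 were sought among 12450 other protein-coding genes, by Pearson's r of log2 CPM over the 8 libraries. The 5 highest were MAP4K4 (r = 0.9990), PAK1 (0.9986), ALDH5A1 (0.9986), GLIS3 (0.9985) and AMOTL1 (0.9984). The 8 libraries fall into the 2 lines, so r mainly measures a step between lines, and no p is given. The steps themselves were far smaller than that of NPAS2. MAP4K4 had mean levels of 242 and 257 CPM in untreated and treated parental cells, and of 393 and 380 CPM in resistant ones. GLIS3 went from 2.92 and 3.27 CPM to 9.91 and 9.75 CPM in the same order. By Spearman's rho 10 genes tied at the highest value, so that no 5 can be singled out, and rho for MAP4K4 was 0.976. The 5 highest by r on log2(CPM + 0.5) shared 3 genes with those above.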

How the data were processed

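Poly(A) RNA was sequenced as stranded libraries from Panc10.05 cells, 4 groups of 2. The authors trimmed the reads with SeqPurge and aligned them to GRCh38 with HISAT2 (2.2.1), and the submitters' processing notes also name Picard and HTSeq without versions. The deposited values are raw counts of reads per Ensembl gene, 1 file per library, and the annotation release and strand setting are not given in the sources used here. The 9 lines for unassigned reads were left out, and 60419 of 60675 identifiers were matched to GENCODE 44 for symbols and exon lengths.

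Groups followed the sample titles. Counts were filtered with filterByExpr, scaled with TMM and fitted with edgeR (4.0.16, R 4.3.3) by the robust quasi-likelihood test on all 8 libraries, with 4 group means, 4 residual degrees of freedom and 5 contrasts, since the study's methods give no test of gene expression levels for these libraries. The script was tested on simulated data. Two-sided p-values were adjusted over 16661 genes. An exact permutation test of 2 against 2 libraries cannot go below p = 0.333 and was not used. The contrasts share libraries. Pearson's r of log2 CPM was 0.996 to 0.998 within groups and at most 0.992 between them.

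Members and lists were chosen with earlier results of these data known. From the further clock genes, the 3 with the largest absolute change among those called were named per comparison. The list of further clock genes first held 2 more, which are not reported here and are in none of its counts. Alternatives were DESeq2 (1.42.0) size factors and its Wald test, library totals alone, no filter on low counts, a minimum mean CPM of 1, an adjusted p under 0.01, only the groups compared, the replicate number as a block, and each library left out in turn.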

Additional observations from a re-analysis of the deposited data

Results flagged for a closer look

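The difference between the lines in the log2 response to indisulam (resistant minus parental) passed the edgeR test for 5 of the 9 core clock genes tested, beside 50.1% of all genes tested. It was 0.75 for NR1D1, 0.62 for PER1, 0.34 for CRY1, -0.32 for PER2 and -0.29 for CLOCK. Among the further clock genes named, it passed for USP2 with 1.02, HLF with -0.98, CIART with 0.90, BHLHE40 with 0.26, BMAL2 with 0.21 and FBXW11 with -0.17. The USP2 call was lost without parental untreated replicate 1 (adjusted p 0.057), and that of FBXW11 with library totals alone (0.25) and with a minimum mean CPM of 1 (0.066). In all of these differences the line and the length of exposure cannot be told apart. For NPAS2 the difference was -1.15 and was not tested, because NPAS2 was chosen for it. Its parental libraries on the drug were both above, and its resistant libraries on the drug both below, the untreated libraries of their line. This restates the response by which NPAS2 was chosen and adds no support to it.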

How the results depend on the processing

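Among 1343 comparisons of a single gene's result with an alternative, 1271 kept their direction and side of the threshold, 40 lost the call, 32 gained it and 0 changed sign past the threshold. The number of core clock genes other than NPAS2 called with the drug in parental cells was 7, beside 9690 of all 16661 genes tested. Under the DESeq2 Wald test it was 4, beside 7984 of all genes tested. It also moved with single libraries left out, as did the numbers in resistant cells and between the lines. The number for the difference of responses did not move. The NPAS2 log2 change in resistant cells was -0.16 with library totals alone against -0.21, and its difference of responses ran from -1.41 to -0.93 with single libraries left out. The cause was not tested.

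The replicate numbers were given no pairing by the labels, and same-numbered libraries did not deviate together (correlations of -0.058 to 0.027 over the pairs of groups). With the replicate number as a block, 6, 7, 8, 7 and 5 of the 9 genes were called for the drug in parental cells, the drug in resistant cells, the lines off the drug, the lines on it and the difference of responses. In the same order, 9537, 8319, 9865, 11472 and 8206 of all 16661 genes tested were called under the block. Of 85 single results, 1 call was lost and 1 gained under the block. Depth limits NPAS2 in parental cells, at 30 to 54 reads per library.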

Other observations

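THRA, which encodes thyroid hormone receptor alpha and overlaps NR1D1 on the opposite strand, was higher in resistant than in parental cells, by 0.89 on the log2 scale off the drug (adjusted p 3.5e-10, edgeR) and 1.03 on it (adjusted p 4.6e-11). It was examined because of the overlap and is no clock gene.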
